A study of Mus musculus with 6 samples.

Results

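The 53 genes described here encode the machinery that condenses chromosomes, attaches them to the spindle and pulls them apart in mitosis. They were taken by symbol from the 20893 genes of a table of mouse heart RNA, and all 53 were found and reached the level needed for testing. In 2 of the 3 Rbpms knockout libraries nearly all of them were below wildtype, and in knockout library 3 most of them were at or above it. Over all 6 libraries 0 of the 53 passed the test across all genes.

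At entry into mitosis, condensin complexes and topoisomerase II compact the chromatids, and kinetochores assemble on centromeric chromatin marked by the histone variant CENP-A. Spindle microtubules are sorted by kinesins and anchored at the NDC80 complex, and a checkpoint of BUB and MAD proteins holds back the anaphase-promoting complex until all chromosomes are attached. Most of these genes are transcribed late in the cell cycle, under B-MYB, FOXM1 and the MuvB complex. In a whole organ their RNA therefore depends in part on the share of dividing cells. Cardiomyocytes divide before birth and largely stop in the days after it, while endothelial, blood and stromal cells of the heart go on dividing.

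The study compared hearts of germline Rbpms knockout mice, labelled R1KO, with wildtype littermates, 3 libraries each, on a background labelled C57BL6/J. The labels give no treatment and no age, and do not say which exons were removed. Whether the hearts were embryonic, as in the title, or neonatal, as in the design text, is uncertain. The labels do not say whether each library came from its own animal, and p-values measure the spread between these libraries. Each group held libraries of both sexes, as read from the values, and so more than 1 animal, but how much of the spread is technical is not known. Values are read numbers that the authors multiplied by 1 factor per library and rounded. Rbpms, which encodes an RNA-binding protein, held 375, 340 and 507 in knockout libraries 1, 2 and 3, against 1182, 1176 and 1317 in wildtype libraries 1, 2 and 3. On the log2(value + 1) scale, used for all fold changes here, it fell by 1.61 ± 0.14 (SE, limma, adjusted p = 0.0124).

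Knockout library 3 stood apart from the rest. The labels give no sex, but Xist, expressed from the inactive X chromosome, held 1763 in knockout library 3 and 1770 in wildtype library 1 and at most 14 in the other 4, which held Y-linked RNA and were read as male. Its mean correlation with the other libraries was 0.9603, against 0.9752 to 0.9775 for the rest. Erythroid markers, 12 genes of which 9 were tested, summed to 879, 947 and 2282 in knockout libraries 1, 2 and 3, against 800 to 1015 in wildtype libraries. In knockout library 3 the red cell genes Alas2 and Slc4a1 held 1004 and 427, where no other library passed 336 and 101. The list did not move as a whole: the globins Hba-a1, Hba-a2 and Hbb-bs held 60, 61 and 214 there, inside the wildtype ranges of 56 to 67, 53 to 68 and 183 to 230. Epor, the erythropoietin receptor, held 26 there, below the 36 to 51 of the wildtype libraries. Epicardial markers, 10 genes, summed to 1133 in knockout library 3, against 1987 and 2155 in knockout libraries 1 and 2 and 1950 to 2225 in wildtype libraries. In knockout library 3, 8 of the 10 were below all wildtype libraries and 1 above. The gene above was Wt1, at 245 against 191 to 225, and Tbx18, at 286, lay inside its wildtype range of 271 to 322. Of all 14974 tested genes, 29.8%, 28.7% and 33.8% were below all wildtype libraries in knockout libraries 1, 2 and 3. In that order 4380, 4178 and 5238 of them were above, the last being 35%. Cardiomyocyte markers, 10 genes, summed to 22967 to 26408 in knockout and 25199 to 27723 in wildtype libraries, with Myh6, Tnnt2 and Actc1 detected in all of them. The lowest sum, 22967, was that of knockout library 3. In knockout libraries 1, 2 and 3, 5, 1 and 7 of the 10 were below all wildtype libraries and 0, 1 and 0 above. Smooth muscle markers, 8 genes, summed to 3592 to 3972 in knockout and 4295 to 4553 in wildtype libraries. In each knockout library 5 of the 8 were below all wildtype libraries, with 1, 1 and 3 above in knockout libraries 1, 2 and 3. Those above in knockout library 3, near the share of all tested genes, were Tagln, Mylk and Lmod1. Endothelial markers, 10 genes, summed to 9075 to 9564 in knockout and 8448 to 8672 in wildtype libraries. Of these 10, 7, 5 and 5 were above all wildtype libraries in knockout libraries 1, 2 and 3. In the same order 0, 0 and 3 were below, the 3 being Kdr, Nfatc1 and Egfl7, near the share of all tested genes in knockout library 3. Fibroblast and leukocyte marker sums, 10 genes each, overlapped between the groups. In knockout libraries 1, 2 and 3, 8, 1 and 5 fibroblast markers were below all wildtype libraries and 1, 4 and 3 above. Leukocyte markers, in that order, had 1, 3 and 4 below and 5, 2 and 4 above. No marker of these lists was at 0 in all libraries. The part of sex, red cells, epicardium and the other cell types in the levels of the mitotic genes was not tested. In bulk RNA, fewer dividing cells and less RNA per cell cannot be told apart.

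Promoters of 44 of the 53 genes were in the RefSeq promoter table (build GRCm38.p6, 250 bases before to 50 after each start), as 46 sequences. The cell cycle homology region, or CHR, is the element TTTGAA to which the MuvB core binds in genes of late cell cycle phases, and the CCAAT box CCAAT, bound by NF-Y, often lies upstream of it. On either strand, the CHR was found in 31 of the 46 promoters (67.4%), against 17.9% of all 32851 promoters in the table. It began within 50 bases of the start in 56.5% of the 46, against 4.94% of all promoters. A CCAAT box was found in 71.7%, against 37.4% of all. No CHR in the 46 sequences overlapped a CCAAT box or an E2F site. A match is a description of letters and does not show that a factor binds there. Of the 44 matched genes, shown here are the 6 genes with the highest mean value among those with a CHR, and the 2 with the highest mean value among those without one. Capitals mark the CHR (TTTGAA or its reverse complement TTCAAA) and the CCAAT box (CCAAT or its reverse complement ATTGG).
Ncapd2 promoter, chr6:125191537-125191836, reverse strand: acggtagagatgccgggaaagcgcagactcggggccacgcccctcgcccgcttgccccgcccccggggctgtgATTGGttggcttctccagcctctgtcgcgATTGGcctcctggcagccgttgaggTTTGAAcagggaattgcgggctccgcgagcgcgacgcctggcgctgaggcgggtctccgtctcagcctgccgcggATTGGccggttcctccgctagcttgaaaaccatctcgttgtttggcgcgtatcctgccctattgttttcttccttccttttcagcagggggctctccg
Mki67 promoter, chr7:135716330-135716629, reverse strand: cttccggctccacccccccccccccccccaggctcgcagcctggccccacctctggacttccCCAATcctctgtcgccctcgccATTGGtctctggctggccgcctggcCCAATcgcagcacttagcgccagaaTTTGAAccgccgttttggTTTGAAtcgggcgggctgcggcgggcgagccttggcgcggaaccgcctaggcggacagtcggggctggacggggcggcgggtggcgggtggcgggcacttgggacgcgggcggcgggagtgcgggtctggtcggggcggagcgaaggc
Top2a promoter, chr11:99024140-99024439, reverse strand: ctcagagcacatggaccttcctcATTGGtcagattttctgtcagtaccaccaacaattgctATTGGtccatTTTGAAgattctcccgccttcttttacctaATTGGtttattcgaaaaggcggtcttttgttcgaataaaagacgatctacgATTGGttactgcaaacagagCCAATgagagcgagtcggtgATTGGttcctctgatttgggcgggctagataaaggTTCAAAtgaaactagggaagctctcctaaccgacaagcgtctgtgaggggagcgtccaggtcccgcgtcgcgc
Bub3 promoter, chr7:131560120-131560419, forward strand: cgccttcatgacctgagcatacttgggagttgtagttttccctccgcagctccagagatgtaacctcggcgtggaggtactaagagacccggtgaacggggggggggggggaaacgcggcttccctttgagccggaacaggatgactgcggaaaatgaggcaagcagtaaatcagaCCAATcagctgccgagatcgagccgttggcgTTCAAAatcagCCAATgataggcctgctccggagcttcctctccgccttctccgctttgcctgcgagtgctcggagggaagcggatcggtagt
Cenpa promoter, chr5:30666636-30666935, forward strand: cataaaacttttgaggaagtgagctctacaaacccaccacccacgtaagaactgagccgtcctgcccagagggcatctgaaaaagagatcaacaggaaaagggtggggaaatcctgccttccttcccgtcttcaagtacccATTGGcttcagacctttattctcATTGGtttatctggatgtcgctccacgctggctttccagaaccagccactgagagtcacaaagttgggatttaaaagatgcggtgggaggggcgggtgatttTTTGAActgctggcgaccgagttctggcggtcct
Kif11 promoter, chr19:37376132-37376431, forward strand: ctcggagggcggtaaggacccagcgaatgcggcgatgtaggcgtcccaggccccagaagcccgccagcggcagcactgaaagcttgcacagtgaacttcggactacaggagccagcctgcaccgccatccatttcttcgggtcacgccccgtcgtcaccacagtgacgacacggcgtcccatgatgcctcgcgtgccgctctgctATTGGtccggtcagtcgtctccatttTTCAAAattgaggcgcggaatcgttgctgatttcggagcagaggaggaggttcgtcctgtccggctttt
Pttg1 promoter, chr11:43425932-43426231, reverse strand: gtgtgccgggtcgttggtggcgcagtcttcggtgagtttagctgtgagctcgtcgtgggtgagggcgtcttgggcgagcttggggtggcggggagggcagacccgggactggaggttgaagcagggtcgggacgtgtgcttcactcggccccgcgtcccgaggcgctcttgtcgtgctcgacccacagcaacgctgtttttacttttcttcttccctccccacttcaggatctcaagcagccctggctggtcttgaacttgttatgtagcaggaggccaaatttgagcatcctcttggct
Ncaph promoter, chr2:127133905-127134204, reverse strand: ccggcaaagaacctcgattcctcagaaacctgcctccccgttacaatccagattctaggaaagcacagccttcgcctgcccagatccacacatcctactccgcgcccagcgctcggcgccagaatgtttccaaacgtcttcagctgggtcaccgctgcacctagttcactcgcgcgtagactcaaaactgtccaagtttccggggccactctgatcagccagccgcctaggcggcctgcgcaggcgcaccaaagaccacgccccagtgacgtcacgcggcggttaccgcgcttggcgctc
Top2a and Mki67 hold 2 CHR each, and Top2a holds 6 CCAAT boxes, the most of the 8 sequences. The sequences of Pttg1 and Ncaph hold neither motif.

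Across the 53 genes, knockout library 1 was below all 3 wildtype libraries in 51 genes and knockout library 2 in 48. Over all 14974 tested genes the same was true of 29.8% and 28.7%. Knockout library 3 was below all 3 wildtype libraries in 3 of the 53, where 33.8% of all tested genes were, and above all 3 in 28, where 35% of all tested genes were. Measured as the log2 difference from the wildtype mean, the median of the 53 genes was -0.89, -0.63 and 0.24 in knockout libraries 1, 2 and 3. The wildtype libraries themselves had medians of 0.14, -0.29 and 0.15, so knockout libraries 1 and 2 lay below this spread and knockout library 3 above it. Knockout libraries 1 and 2 were both below every wildtype library in 47 of the 53 genes and in 18% of all tested genes. The full pattern, with knockout libraries 1 and 2 below and knockout library 3 above every wildtype library, was seen in 24 of the 53 genes and in 3.26% of all tested genes.

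**Figure D1:**
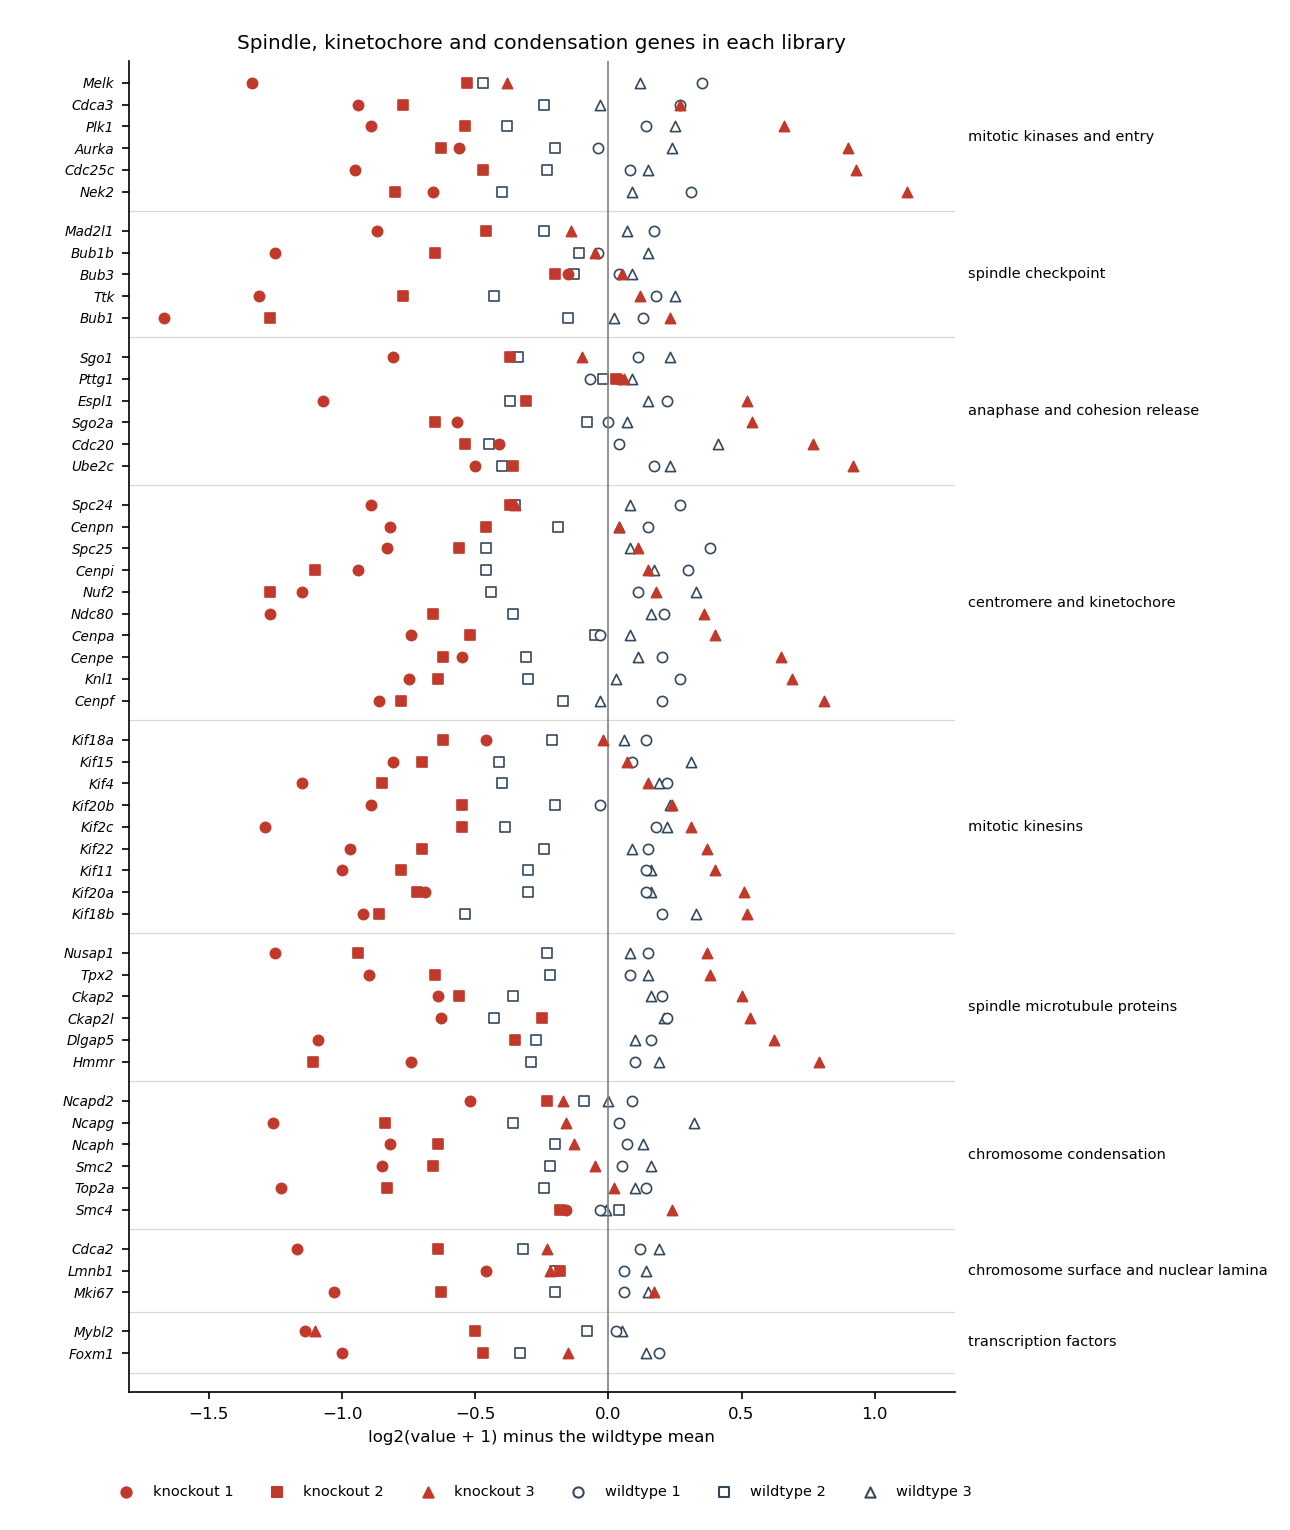
Each row is 1 of the 53 genes, grouped by role, and the x axis gives log2(value + 1) minus the mean of the 3 wildtype libraries. Filled red symbols are knockout libraries and open symbols wildtype libraries. Knockout libraries 1 and 2 lie left of all wildtype libraries in 47 genes, and knockout library 3 is the highest of all 6 libraries in 28.

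The levels of the genes varied together from library to library. Each gene's log2 level was compared over the 6 libraries with the median profile of the other 52, and 46 of the 53 had a Pearson r above 0.8, with a median of 0.94. All tested genes, the 53 included, had a median r of 0.01 with the profile of the 53, and 4.17% were above 0.8. These libraries share 2 groups and a single outlying library, so r describes likeness of pattern and carries no test. The genes least like the rest were Pttg1 at 0.03 and Mybl2 at 0.33, with Lmnb1 next at 0.70.

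In the test over all 6 libraries, 0 of the 53 genes had an adjusted p under 0.05, where 0.434% of all 14974 tested genes were lower and 0.508% higher, 0.942% together (limma, Benjamini-Hochberg). The log2 fold change was below 0 in 51 of the 53, where 50.2% of all tested genes were, with a median of -0.42 for the 53. At an unadjusted p under 0.05, 11 of the 53 were lower and 0 higher, where 7.86% and 8.54% of all tested genes were, and voom on recovered reads also called 0, with 0.488% of all tested genes. Without knockout library 3, 27 of the 53 fell and 0 rose, where 2.6% of all tested genes fell and 2.26% rose. Of the 53 fold changes 52 were then below 0, as were 49.6% of all, and the median was -0.73. That fit leaves out the knockout library that differs most from the others and rests on 2 knockout libraries. Both were read as male, while wildtype library 1, kept in that fit, was read as female, so sex is not balanced in it. Without knockout library 2, Mybl2 was the 1 gene of the 53 that fell (adjusted p = 0.0221), where 1.63% of all tested genes fell and 1.78% rose. Without knockout library 1, 0 of the 53 passed, with 0.0401% of all tested genes. Without wildtype library 1, 2 or 3, 0 of the 53 passed, with 0.02%, 0% and 0% of all tested genes.

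Split by sex, the 4 male libraries (knockout 1 and 2, wildtype 2 and 3) gave 14 of the 53 genes lower and 0 higher, where 0.875% of all tested genes were lower and 0.835% higher, with a median log2 fold change of -0.67. That male fit holds the same 2 knockout libraries as the fit without knockout library 3, so it is not separate support. The female pair is 1 library against 1 and carries no test. There the median log2 difference, knockout library 3 minus wildtype library 1, was 0.13 over the 53 genes and 0 over all tested genes, with a range from -1.13 to 0.95. The knockout library was the higher of the pair in 31 of the 53 and in 49% of all tested genes. With a term for sex in the fit of all 6 libraries, 0 of the 53 passed, where 0.675% of all tested genes were lower and 0.815% higher. Sex and whatever else sets knockout library 3 apart cannot be told apart in the knockout group, which holds 1 female library.

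**Figure D2:**
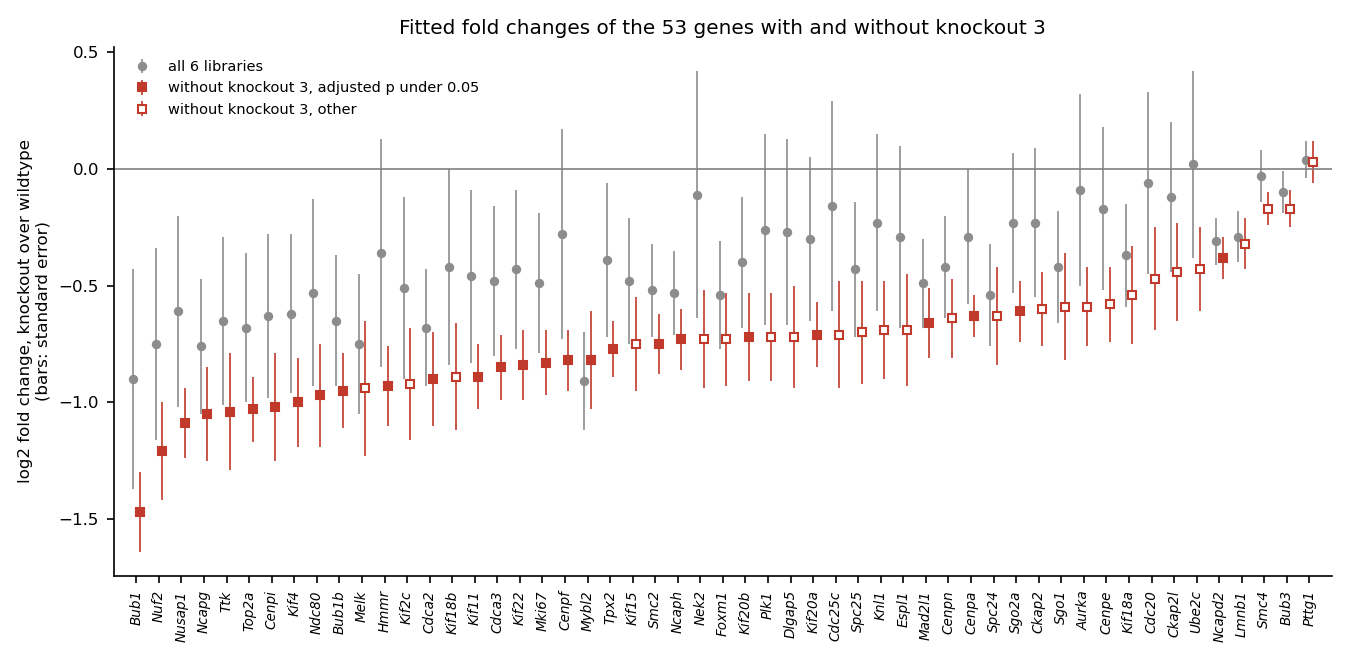
Log2 fold changes of knockout over wildtype with standard errors for the 53 genes, in the fit of all 6 libraries (grey circles) and without knockout library 3 (red squares, filled where the adjusted p is under 0.05). Without that library 27 genes pass and 50 of the 53 standard errors are smaller, and Mybl2 is the 1 gene whose fold change is deeper with that library.

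Condensation genes were low in knockout libraries 1 and 2, with medians of -0.83 and -0.65 against the wildtype mean, and near it in knockout library 3, at -0.09. Top2a (ENSMUSG00000020914, chr11:98883769-98915015 on the reverse strand of mm39) encodes topoisomerase II alpha, which untangles replicated chromatids. It held 214, 282 and 511 in knockout libraries 1, 2 and 3, against 554, 427 and 539 in wildtype libraries. Knockout libraries 1 and 2 were low and the groups overlapped through knockout library 3, and the fold change was -0.68 on the log2 scale (limma, adjusted p = 0.35). Without that library Top2a fell by 1.03 on the log2 scale (adjusted p = 0.00736). Ncapd2, a HEAT-repeat subunit of condensin I, held 481, 590 and 613, against 738, 651 and 690. It was 1 of 2 genes of the 53 whose groups did not overlap, both lower in knockout, as were 10.9% of all tested genes, while 0 were higher in this way, as were 11% of all (log2 fold change -0.31, adjusted p = 0.163). Ncaph, the kleisin of condensin I, held 117, 133 and 190, against 218, 180 and 227, and knockout library 3 lay inside the wildtype range (log2 fold change -0.53, adjusted p = 0.197). Without knockout library 3 it fell by 0.73 on the log2 scale (adjusted p = 0.00532). Smc4, an ATPase core subunit of both condensins, held 542, 533 and 716, against 592, 620 and 601, where knockout library 3 was the highest and the fold change was -0.03 (adjusted p = 0.913). Of the 6 condensation genes, 5 fell without knockout library 3, Smc4 being the exception, where 2.6% of all tested genes fell. This fit and its counts in the roles below rest on 2 knockout libraries.

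The spindle checkpoint genes had the lowest median of the 9 roles in knockout library 1, -1.25 against the wildtype mean, with -0.65 and 0.05 in knockout libraries 2 and 3. Bub1 (ENSMUSG00000027379, chr2:127643036-127673785, reverse strand) encodes the kinase that recruits checkpoint proteins to kinetochores. It held 37, 49 and 141 in knockout libraries 1, 2 and 3, against 131, 108 and 122 in wildtype libraries, so knockout library 3 was above all wildtype libraries. The log2 fold change was -0.90 ± 0.47 (SE, limma, adjusted p = 0.394), and without knockout library 3 it was -1.47 (adjusted p = 0.000686), the deepest of the 53. Bub1b, which encodes the checkpoint protein BubR1, held 109, 166 and 251, against 254, 241 and 289 (log2 fold change -0.65, adjusted p = 0.308). Its knockout library 3 lay inside the wildtype range and the other 2 below it. Bub3, their adaptor protein, held 373, 360 and 429, against 425, 379 and 439, with knockout libraries 1 and 2 narrowly below all wildtype libraries and knockout library 3 among them (log2 fold change -0.10, adjusted p = 0.639). Of the 5 checkpoint genes Bub1, Bub1b, Ttk and Mad2l1 fell without knockout library 3, where 2.6% of all tested genes fell.

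Centromere and kinetochore genes followed the same split. Cenpa, the histone variant that marks centromeres, held 227, 263 and 500 in knockout libraries 1, 2 and 3, against 370, 366 and 401 in wildtype libraries. Its wildtype values were close together, and the knockout libraries lay on both sides of them (log2 fold change -0.29, limma, adjusted p = 0.674). Cenpf, a large protein of the outer kinetochore, held 98, 104 and 315, against 206, 159 and 176. The library 3 value stood 0.81 above the wildtype mean on the log2 scale, and the fold change was -0.28 (adjusted p = 0.807). All 10 genes of this class were below every wildtype library in knockout libraries 1 and 2, as were 18% of all tested genes. In knockout library 3, 5 of the 10 were above every wildtype library, as were 35% of all tested genes. Without knockout library 3, 5 of the 10 fell, where 2.6% of all tested genes fell. Log2 fold changes in that fit were -0.63 for Cenpa (adjusted p = 0.00209) and -0.82 for Cenpf (adjusted p = 0.00383). For Nuf2, a subunit of the NDC80 complex, it was -1.21 (adjusted p = 0.00628).

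The mitotic kinesins, motors that build and slide the spindle, were likewise all below every wildtype library in knockout libraries 1 and 2. Of all tested genes 18% were. Kif11 (ENSMUSG00000012443, chr19:37364851-37410307, forward strand), the motor that pushes spindle poles apart, held 125, 146 and 332 in knockout libraries 1, 2 and 3, against 278, 204 and 280 in wildtype libraries. Of the 53 genes it had the profile closest to the median of the others. Its log2 fold change was -0.46 (limma, adjusted p = 0.595), and -0.89 without knockout library 3 (adjusted p = 0.00471). Kif20a, a motor of the central spindle, held 147, 144 and 340, against 263, 193 and 267 (log2 fold change -0.30, adjusted p = 0.726). Knockout library 3 was above all wildtype libraries in 6 of the 9 kinesins and in 35% of all tested genes. Without it 5 of the 9 fell, where 2.6% of all tested genes fell.

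Among the spindle microtubule proteins, knockout library 3 was above every wildtype library in 6 of 6, and in 35% of all tested genes. Tpx2, which activates Aurora A on spindle microtubules, held 140, 167 and 341 in knockout libraries 1, 2 and 3, against 276, 224 and 290 in wildtype libraries. Its log2 fold change was -0.39 (limma, adjusted p = 0.616), and -0.77 without knockout library 3 (adjusted p = 0.00419). Ckap2l, a spindle-associated protein, held 127, 165 and 285, against 229, 146 and 228, with a fold change of -0.12 (adjusted p = 0.889). Here wildtype library 2 was below knockout library 2, so the male libraries of the groups overlapped too.

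Kinases and regulators of mitotic entry were the class highest in knockout library 3, with a median of 0.78 above the wildtype mean on the log2 scale, against -0.92 and -0.58 in knockout libraries 1 and 2. Nek2 (ENSMUSG00000026622, chr1:191553556-191565162, forward strand), a kinase that separates centrosomes, held 54, 49 and 189 in knockout libraries 1, 2 and 3, against 107, 65 and 92 in wildtype libraries. The library 3 value was 1.12 above the wildtype mean, the highest difference of the 53 genes, and the log2 fold change was -0.11 ± 0.53 (SE, limma, adjusted p = 0.937). Cdc25c, a phosphatase that activates Cdk1, held 27, 38 and 102, against 56, 45 and 59, and its library 3 value was 0.93 above the wildtype mean. Plk1, the polo kinase of mitotic entry and exit, held 79, 101 and 234, against 162, 113 and 175. Cdca3, which triggers degradation of the Cdk1 inhibitor Wee1, held 110, 124 and 255, against 256, 179 and 208, and its library 3 value reached the wildtype range without passing it. In these 3, in that order, the fold change was -0.16, -0.26 and -0.48 on the log2 scale (adjusted p = 0.888, 0.804 and 0.513). Melk, a kinase, held 35, 62 and 69, against 115, 65 and 98, with knockout library 3 inside the wildtype range and libraries 1 and 2 below it (log2 fold change -0.75, adjusted p = 0.252). Without knockout library 3, Cdca3 was the 1 of the 6 that fell, by 0.85 on the log2 scale (adjusted p = 0.00524). Of all tested genes 2.6% fell.

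Genes of anaphase and cohesion release had the medians closest to the wildtype mean in knockout libraries 1 and 2, -0.54 and -0.36, with 0.53 in knockout library 3. Cdc20, the activator of the anaphase-promoting complex, held 127, 116 and 288 in knockout libraries 1, 2 and 3, against 174, 123 and 224 in wildtype libraries (log2 fold change -0.06, limma, adjusted p = 0.958). Knockout library 1 lay inside the wildtype range, and knockout library 3 above it. Pttg1 (ENSMUSG00000020415, chr11:43311077-43317078, reverse strand), which encodes securin, the inhibitor of separase, was nearly flat at 257, 256 and 262, against 238, 248 and 267 (log2 fold change 0.04, adjusted p = 0.834). Its 6 values span less than those of its partner Espl1, which encodes separase and held 47, 80 and 143, against 116, 77 and 111. Sgo2a, a shugoshin that protects centromeric cohesion, was the 1 of the 6 that fell without knockout library 3, by 0.61 on the log2 scale (adjusted p = 0.015). Of all tested genes 2.6% fell.

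The 2 transcription factors and the 3 genes of the chromosome surface and nuclear lamina had the lowest class medians in knockout library 3. These were -0.62 and -0.22 against the wildtype mean. The factors were unlike, Mybl2 at -1.10 and Foxm1, inside its wildtype range, at -0.15. In the other class Mki67 was at 0.17, Cdca2 at -0.23 and Lmnb1 at -0.22. Mybl2 (ENSMUSG00000017861, chr2:162896607-162926608, forward strand) encodes B-MYB, which joins the MuvB complex to activate late cell cycle genes and is itself an E2F target of the entry into S phase. It held 31, 49 and 32 in knockout libraries 1, 2 and 3, against 71, 66 and 72 in wildtype libraries, so all 3 knockout libraries were low and the groups did not overlap. With a log2 fold change of -0.91 ± 0.21 (SE), it had the smallest p of the 53 without passing (limma, adjusted p = 0.0859). Foxm1, the forkhead factor of G2 and M phase genes, held 112, 162 and 202, against 256, 179 and 247 (log2 fold change -0.54, adjusted p = 0.294). Mki67, which encodes the Ki-67 coat of mitotic chromosomes, held 264, 349 and 606, against 560, 468 and 597, and knockout library 3 was the highest of all (log2 fold change -0.49, adjusted p = 0.469). Without it Mki67 fell by 0.83 on the log2 scale (adjusted p = 0.0122). Lmnb1, lamin B1 of the nuclear envelope, held 379, 463 and 449, against 546, 455 and 577 (log2 fold change -0.29, adjusted p = 0.23). Of the 53 genes, Mybl2, Lmnb1 and Ncapd2 were the 3 below every wildtype library in knockout library 3.

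**Figure D3:**
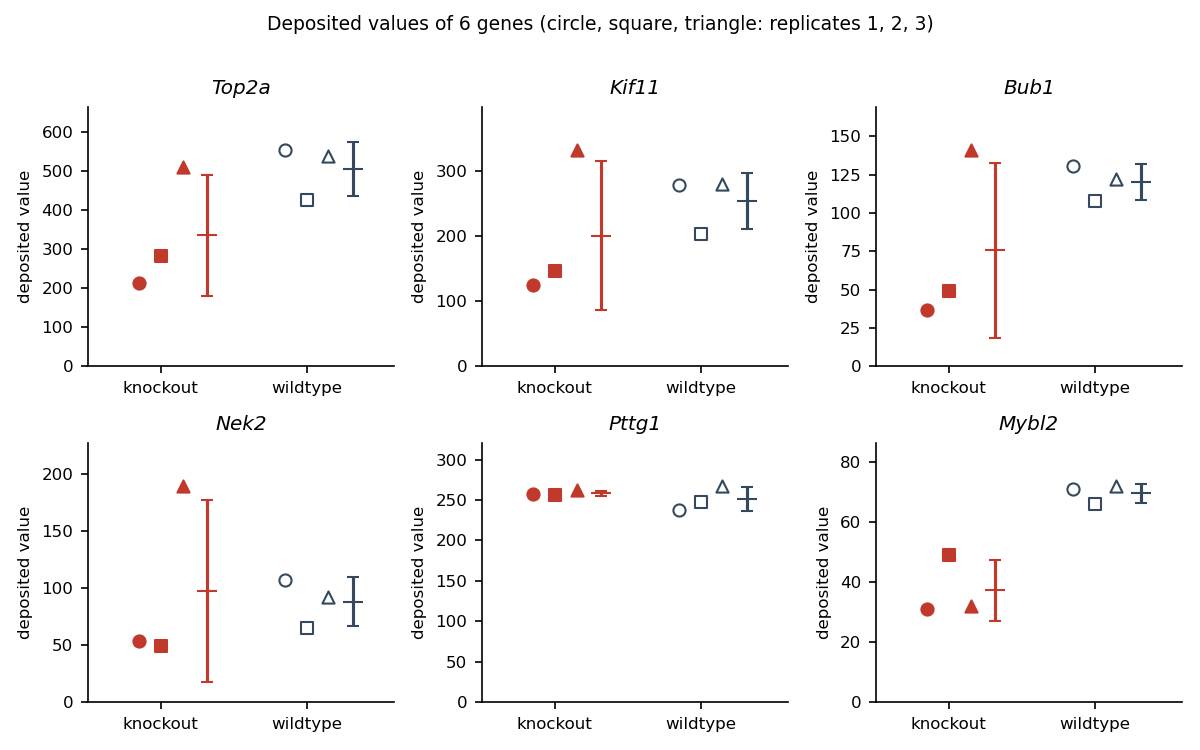
Deposited values of 6 of the genes, with filled red symbols for knockout and open symbols for wildtype libraries, and a bar for the mean and SD (n = 3 each) beside them. In Top2a, Kif11, Bub1 and Nek2 the triangle of knockout library 3 is far above the other knockout libraries, Pttg1 is flat, and Mybl2 is low in all 3 knockout libraries.

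Per kilobase of exon, the wildtype mean of deposited values ran from 5.09 for Kif18a to 178 for Lmnb1, with Pttg1 (126), Smc4 (116) and Ncapd2 (111) next after Lmnb1. These 4 genes had log2 fold changes between -0.31 and 0.04, closer to 0 than the median of the 53.

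Of 105 other genes of the pathway, all tested, 0 changed over all 6 libraries by limma, where 0.942% of all tested genes did, and their fold changes had a median of -0.12 on the log2 scale. At an unadjusted p under 0.05, 22 were lower and 3 higher, where 7.86% and 8.54% of all tested genes were. The smallest p was that of Ncapg2, a condensin II subunit, at 84, 100 and 113 in knockout libraries 1, 2 and 3, against 167, 139 and 156 in wildtype libraries. All 3 knockout libraries were below all wildtype libraries (log2 fold change -0.64, adjusted p = 0.0775). Kntc1, a subunit of the RZZ complex of the kinetochore, and Trip13, the ATPase that recycles MAD2, had the smallest p of the kinetochore and spindle lists, at -0.94 and -0.89 on the log2 scale (adjusted p = 0.0904 and 0.0872). Without knockout library 3, 24 of the 105 fell and 0 rose, where 2.6% of all tested genes fell and 2.26% rose. They came to 9 of 32 other kinetochore genes, 3 of 17 of condensin II and cohesin, 11 of 39 of spindle assembly and centrosomes and 1 of 17 of the anaphase-promoting complex. The last of these was Fbxo5, its inhibitor Emi1. Anapc2, the subunit with the smallest p, at 710, 657 and 732, against 609, 603 and 630, was higher in all 3 knockout libraries (log2 fold change 0.19, adjusted p = 0.203).

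Genes with other roles in the cell cycle were compared by list. Of all tested genes, 0.434% fell over all 6 libraries, 2.6% without knockout library 3 and 1.63% without knockout library 2. Cytokinesis and passenger complex genes, 13 in all, had medians of -0.84, -0.76 and 0.30 in knockout libraries 1, 2 and 3, and 0 passed over all 6 libraries while 11 fell without knockout library 3. The smallest p over all 6 libraries was that of Aurkb, the kinase of the passenger complex (adjusted p = 0.214). G2 and M cyclins with Cdk1, 7 genes, had medians of -0.62, -0.58 and 0.19, with 0 passing, Ccnf having the smallest p (adjusted p = 0.191), and 3 falling without knockout library 3. DNA replication genes, 40 in all, had medians of -0.63, -0.21 and -0.69, so knockout library 3 was the lowest there. The 1 replication gene that fell over all 6 libraries was Pola1, a DNA polymerase alpha subunit, at 52, 63 and 66, against 120, 104 and 106 (log2 fold change -0.86, limma, adjusted p = 0.0472). That call was lost with quantile normalization (adjusted p = 0.0531), a mean value of at least 50 (0.0536), voom (0.0535), no trend and no robust moderation (0.078) and the replicate block (0.141). It was also lost without knockout library 1 (adjusted p = 0.141) and without any 1 of the wildtype libraries. Of the 40 replication genes, 4 fell without knockout library 3 and 16 without knockout library 2. In the female pair, the median log2 difference was 0.13 for the 53 genes and -0.76 for the replication genes, and in the male fit -0.67 and -0.36. These list differences rest on few libraries and were not tested. Of 12 subunits of the MuvB and DREAM complexes, which regulate late cell cycle genes, 0 passed, and Rbl1, which encodes the pocket protein p107, had the smallest p at 82, 123 and 79, against 180, 149 and 144 (log2 fold change -0.75, adjusted p = 0.0961).

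**Figure D4:**
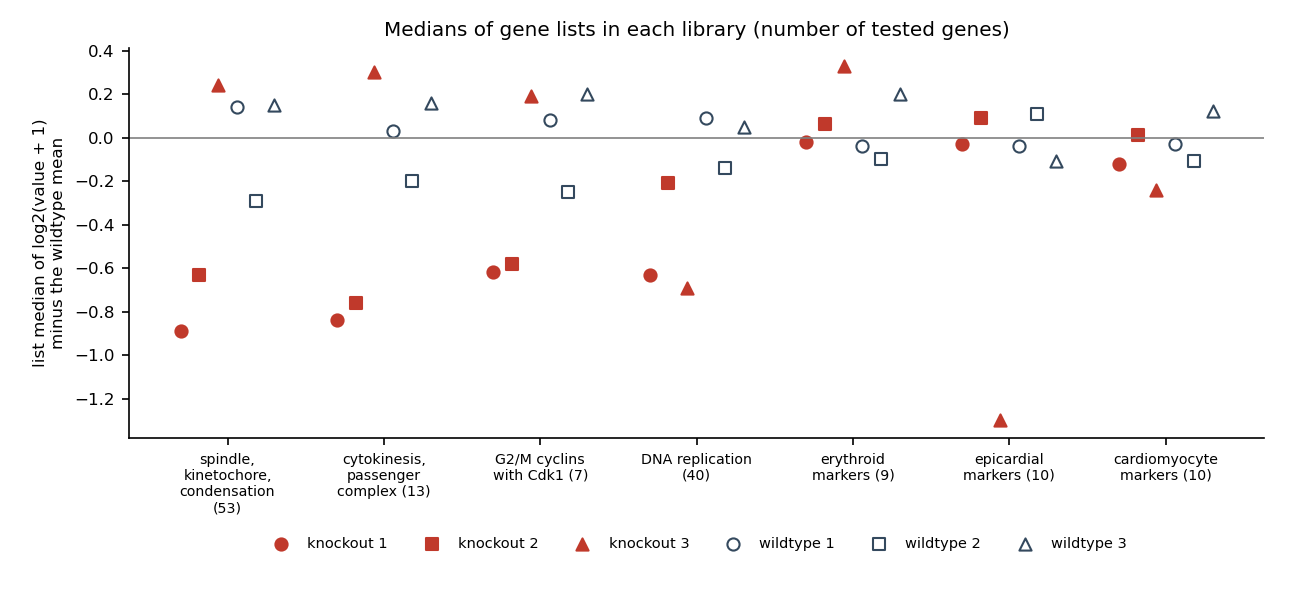
Median over each gene list of log2(value + 1) minus the wildtype mean, with filled red symbols for knockout and open symbols for wildtype libraries. The 53 genes, the cytokinesis genes and the G2 and M cyclins share low values in knockout libraries 1 and 2 and a value above 0 in knockout library 3, where replication genes (-0.69) and epicardial markers (-1.30) are low and erythroid markers high (0.33).

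The promoters were compared with those of the replication genes and of the cytokinesis and cyclin lists. A CHR was found in 10.5% of 38 promoters of replication genes, against 67.4% of the promoters above. It was found in 85.7% of 14 cytokinesis promoters and 66.7% of 6 cyclin promoters. It began within 50 bases of the start in 78.6% and 66.7% of these. A CCAAT box was found in 63.2% of replication, 64.3% of cytokinesis and 100% of cyclin promoters, against 71.7% for the 53 genes. Neither motif was thus particular to the 53 genes. An E2F site, searched as TTTCCCGC, TTTGGCGC, TTTCGCGC or TTTGCCGC on either strand, was found in 39.5% of promoters of replication genes, in 8.7% of promoters of the 53 genes and in 2.26% of all promoters. Within the 53, the 30 genes with a CHR had medians of -0.88, -0.64 and 0.33 in knockout libraries 1, 2 and 3, and the 14 without one had -0.84, -0.63 and 0.10. In knockout library 3, genes with a CHR ran from -0.17 to 0.92 and 26 of the 30 were above the wildtype mean, while genes without one ran from -1.10 (Mybl2) to 1.12 (Nek2) and 8 of the 14 were above it. The ranges overlapped, and Nek2, the highest of all, has no CHR in this window, as does Mybl2, the lowest. Kif11 and Top2a, whose promoters are printed above, and Ncaph, whose promoter has neither motif, all fell without knockout library 3, and the flat Pttg1 has neither motif.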

How the data were processed

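The 6 stranded mRNA libraries of mouse heart were read in a single end of 72 bases, per the labels' protocols. The submitters' processing notes name Trimmomatic 0.39, STAR 2.7.11a, Picard 3.0.0, featureCounts 2.0.4, DESeq2 1.36.0 and the build mm39, without role or order. As deposited, the values are a score: reads per gene that the authors multiplied by a factor per library and rounded, read from whole numbers that are missing or doubly frequent at regular steps. No source used here gives the strand setting of the counting or any filter. Factors estimated from values under 400 ran from 0.8524 to 1.1798, and dividing by them recovered 4163230 to 5805892 reads per library.

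Because the values are not raw counts, limma 3.58.1 (R 4.3.3, statmod 1.5.0) was run on log2(value + 1) with trend and robust moderation. It used the 14974 genes that reached 10 in 3 or more libraries, and Benjamini-Hochberg adjustment over all of them with a threshold of 0.05. Fold changes on this scale understate the change of low genes. The scripts were tested on data simulated with little spread between libraries and no outlying library, so that test does not cover the spread seen here. Alternatives changed scaling, pseudocount, filter, moderation, weights and replicates, and sex was added after the data were seen. Exon lengths came from a GRCm38 annotation matched by gene identifier, without its coordinates.

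The 53 genes, the lists and the rules were chosen with earlier results of these data known. Named with every library were the 2 members of each of 9 roles with the highest mean value, any that passed, the 3 with the smallest p and the 2 highest and 2 lowest in knockout library 3 against wildtype. Other members named, such as Top2a, Bub1, Nuf2, Espl1 and Sgo2a, were picked with their values in view.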

Additional observations from a re-analysis of the deposited data

How the results depend on the processing

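Of the 53 genes 0 changed under rescaling, quantile normalization, other pseudocounts, other filters, unmoderated variances, voom, the replicate block or a term for sex. In male libraries 14 changed, and leaving out 1 library gave 0 to 27. The count over all genes, 141, was 218 with no filter, 78 with a mean value of at least 50, 24 with neither trend nor robust moderation, 73 with voom on recovered reads, 223 with sex as a term and 256 in the males. The split of 65 lower and 76 higher became 46 and 27 with voom, and 58 and 42 with libraries rescaled to equal totals. Leaving out 1 library gave 0 to 727, with 6, 510 and 727 without knockout libraries 1, 2 and 3 and 3, 0 and 0 without wildtype libraries 1, 2 and 3. The cause was not tested. The replicate block gave 23 over all genes and 0 of the 53. Same-numbered libraries had deviations correlated at -0.17, -0.11 and -0.13, and the other pairs at -0.02 to 0.14, so the values gave no sign of pairing by number. Libraries numbered 1, and those numbered 3, were of unlike sex, and 3 libraries per group cannot settle whether the numbers pair them.

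The median fold change of the 53 genes ran from -0.73 to -0.19 when 1 library was left out and was -0.67 in male libraries. Without 1 library, the fold change ran from -0.72 to 0.06 for Plk1, -0.47 to 0.18 for Cdc20, -0.82 to 0.01 for Cenpf, -0.44 to 0.14 for Ckap2l, -0.17 to 0.04 for Smc4, -0.73 to 0.23 for Nek2 and -0.71 to 0.23 for Cdc25c. Pttg1 was at 0.00 in male libraries, with the sign turned. At 4163230 to 5805892 recovered reads, Cdc25c and Mybl2 have low values, at most 102 and 72 in any library, where counting error weighs more than in genes with high values.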
